A study of Mus musculus with 4 samples.

Results

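The neural progenitor factors and POU3 genes, a set of 8, were followed in sorted brain cells of mice with and without tamoxifen. They are Pou3f1, Pou3f2, Pou3f3, Pax6, Neurog2, Nes, Sox3 and Zic1. The set makes up 8 of the 24873 genes listed, found by symbol, and none was missing. It was chosen by the difference of these genes between the same control and tamoxifen libraries, so their levels and fold changes are given as a description and without p-values. All 8 passed the filter of a mean of at least 10 normalized counts over the libraries. Pou3f1, Neurog2 and Sox3 passed it through the tamoxifen libraries alone, since each was below 10 in both control libraries.

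Both groups of mice carried the genotype Cdh5cre;Mgpflox/flox, in which a tamoxifen-activated Cre recombinase is expressed from the VE-cadherin promoter of endothelial cells and both copies of Mgp are flanked by its target sites. MGP, the matrix Gla protein, is an inhibitor of bone morphogenetic proteins, and its endothelial loss is the study's model of cerebral arteriovenous malformation. Tamoxifen was injected at 75 mg/kg on each of 5 days into mice aged 10 weeks at the start. Controls received none, so an effect of tamoxifen itself and an effect of the deletion cannot be told apart. CD31+CD45- brain cells were taken on day 9, and each of the 2 control and 2 tamoxifen libraries came from a separate pool of 3 mice. The paper states for the study as a whole, not for each pool, that both sexes were mixed in its groups. The sample labels name the cells by tdTomato in place of CD31 and CD45, and the genotype label lists no tdTomato allele.

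Pou3f1 (Oct6), Pou3f2 (Brn2) and Pou3f3 (Brn1) belong to the class III POU transcription factors, which bind DNA through a POU-specific domain and a POU homeodomain and act together with SOX proteins in progenitors of the central nervous system. Sox3, on the X chromosome, is a SOXB1 factor of the same progenitors. Pax6 is a paired-box factor of radial glia and of the developing eye, Neurog2 is a proneural basic helix-loop-helix factor that drives the birth of excitatory neurons, and Zic1 is a zinc finger factor of the dorsal neural tube, the cerebellum and the meninges. Nes encodes nestin, an intermediate filament protein best known from neural stem cells. Nestin is also made by endothelial cells and pericytes, and Pou3f1 is also known from the epiblast and from Schwann cells.

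The Pou3f2 and Nes start regions are shown because these genes lay on opposite sides of the comparison. Sequences were read from the RefSeq promoter table, which holds windows of mouse build GRCm38.p6, and were placed in GRCm39 by exact match. The Pou3f2 window ends directly before the first annotated base of the gene, on the minus strand at chr4:22488367-22488616. It lies within the span of the antisense lncRNA gene Gm30731, and no exon of a coding gene overlaps it. Capitals mark CCAAT boxes and a GGGCGG box.
Pou3f2 upstream: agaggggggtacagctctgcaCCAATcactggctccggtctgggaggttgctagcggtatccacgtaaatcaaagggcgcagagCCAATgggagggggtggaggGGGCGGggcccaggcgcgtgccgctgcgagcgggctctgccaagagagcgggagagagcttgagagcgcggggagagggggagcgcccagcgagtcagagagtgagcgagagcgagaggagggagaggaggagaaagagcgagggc
The Nes window, intergenic and on the plus strand at chr3:87878150-87878384, is cut at the first annotated base of the gene. Capitals mark CCGCCC, the reverse complement of GGGCGG.
Nes upstream: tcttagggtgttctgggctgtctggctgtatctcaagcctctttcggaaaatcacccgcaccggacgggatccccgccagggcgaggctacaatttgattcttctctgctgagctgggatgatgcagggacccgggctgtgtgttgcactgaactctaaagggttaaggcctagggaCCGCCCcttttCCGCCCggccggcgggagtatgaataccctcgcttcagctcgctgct
The enhancer that is known to drive nestin in neural progenitors, through SOX and POU proteins, lies in intron 2 of Nes. In GRCm39 this intron covers chr3:87880424-87882108, or 1685 bases, and its last 250 bases are chr3:87881859-87882108 on the plus strand. These last bases were chosen by position, and whether they hold the enhancer was not examined. Capitals mark ACAATG, a form of the SOX motif.
Nes end of intron 2: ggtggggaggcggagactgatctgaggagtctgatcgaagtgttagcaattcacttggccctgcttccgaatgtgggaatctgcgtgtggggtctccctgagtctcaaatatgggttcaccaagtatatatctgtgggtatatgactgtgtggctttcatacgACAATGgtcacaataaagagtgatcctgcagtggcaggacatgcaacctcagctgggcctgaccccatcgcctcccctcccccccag

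The motifs named next were searched on both strands in the 250 bases before each start in that table. Promoters of 6 of the 8 genes matched it, 7 windows in all because Pax6 has 2 starts, and Pou3f1 and Sox3 had none. Their GC content ran from 47.6% to 66.8% and their CpG dinucleotides from 8 to 27, against medians of 52.4% and 6 over the 32851 promoters of the table. Exons of coding genes overlapped both Pax6 windows and those of Neurog2, Nes and Zic1, so these windows are not free of annotated exons. The Pou3f3 and Neurog2 windows lie within the annotated spans of their genes. GGGCGG, bound by SP1, was present in 5 of the 7 windows (Pou3f2, Pou3f3, Neurog2, Nes and Zic1) and in 32.7% of all promoters. CCAAT was present in 4 windows (Pou3f2, Pou3f3, Pax6 at its first start, and Zic1) and in 33.8% of all promoters. The octamer ATGCAAAT, the classical POU motif, was in none of the 7 windows and in 1.60% of all promoters. Of the SOX motifs, ACAATG was in none of the 7 windows (10.7% of all promoters), and ACAAAG was in the second Pax6 window alone (16.5% of all promoters). Intron 2 of Nes held 1 ACAATG, no ACAAAG and no octamer. A match is a string of letters and was not tested as a binding site.

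The POU3 genes are also shown by their most alike stretch, because reads from near-identical genes can be assigned to the wrong one. The longest run shared by the canonical transcripts of Pou3f1 and Pou3f2 was 38 bases, in the coding part for the POU-specific domain. The runs shared by Pou3f1 and Pou3f3 and by Pou3f2 and Pou3f3 were 29 and 23 bases, and no pair shared a window of 50 bases. The stretch lies at chr4:124552382-124552419 (plus strand) in Pou3f1, chr4:22487155-22487192 (minus) in Pou3f2, chr1:42737386-42737423 (plus) in Pou3f3 and chrX:109858776-109858813 (plus) in Pou3f4. Capitals mark bases that differ from Pou3f1, which number 0, 2 and 3 in Pou3f2, Pou3f3 and Pou3f4.
Pou3f1: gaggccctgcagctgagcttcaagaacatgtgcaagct
Pou3f2: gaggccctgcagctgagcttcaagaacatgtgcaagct
Pou3f3: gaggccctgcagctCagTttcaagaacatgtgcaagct
Pou3f4: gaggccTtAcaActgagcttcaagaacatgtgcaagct

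The libraries held 35387438 to 49799321 reads on genes, and the values are read counts divided by 1 factor per library, called normalized counts below. Mgp, the targeted gene, had 1094 and 1352 normalized counts in control against 945 and 909 after tamoxifen, a log2 fold change of -0.39 (SE 0.18, limma with Benjamini-Hochberg adjustment, adjusted p = 0.0986). Of the endothelial markers Pecam1, Cdh5, Tek, Cldn5, Flt1, Kdr, Emcn and Erg, all 8 fell, and their summed level was 853595 to 880660 normalized counts in control and 75084.6 to 147715 in tamoxifen libraries. The tamoxifen libraries also differed from each other, with 10 of 10 pluripotency genes and 8 of 8 neutrophil genes higher in library 1 and 8 of 8 astrocyte genes higher in library 2. In bulk libraries such as these, fewer cells of a type and less RNA per cell cannot be told apart. At 2 libraries a group, the smallest two-sided p of an exact permutation test is 0.333 for any gene on its own.

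Nes was lower in each tamoxifen library than in each control library, the other 7 genes were higher, and no gene had overlapping groups. A call required an adjusted p under 0.05 together with a log2 fold change beyond 1 in either direction. By this rule all 8 genes were called, where 44.7% of all 20485 tested genes were. Called higher were 7 of the 8 and 28.6% of all tested genes, and called lower were 1 of the 8 and 16.0% of all tested genes. Groups that did not overlap were found in 43.1% of all tested genes on the higher side and 39.2% on the lower side. Nothing is read from the counts of the 8 genes, because this contrast chose them. Their median log2 fold change was 4.73, or 4.46 with Neurog2 at its lower bound, against 0.05 over all tested genes.

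**Figure D1:**
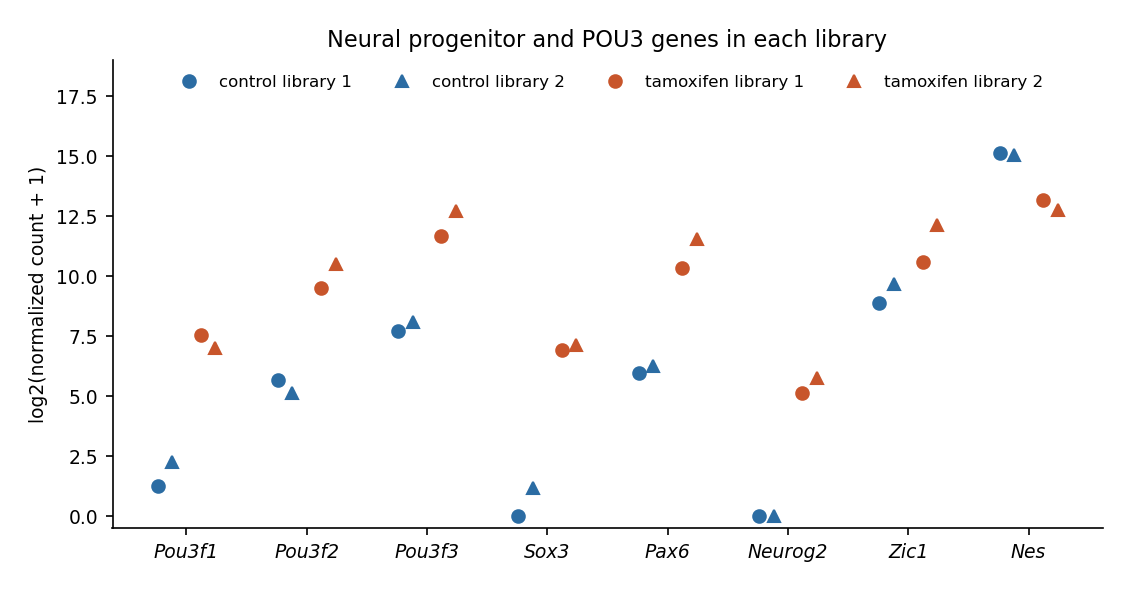
Level of each of the 8 genes in each library, as log2(normalized count + 1) on the vertical axis, with control libraries in blue and tamoxifen libraries in orange (circles for library 1, triangles for library 2). The tamoxifen points lie above the control points for 7 genes and below them for Nes, whose control libraries at 36146 and 33620.3 normalized counts are the highest points drawn.

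The POU factors come first. Pou3f3 (ENSMUSG00000045515, chr1:42734085-42742336, plus strand, 4 exons in its canonical transcript) had 205 and 273 normalized counts without tamoxifen and 3282 and 6635 with it. Its means were 239 ± 47.7 and 4959 ± 2371 (SD, n = 2), a log2 fold change of 4.29 (SE 0.32) or 20.7-fold. It was thus detected without tamoxifen, from 150 and 218 reads, and tamoxifen library 2 was 2.02 times library 1.

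Pou3f2 (ENSMUSG00000095139, chr4:22482780-22488366, minus strand, 1 exon) was lower per kb than Pou3f3 in both groups (7.44 against 32.6 without and 196 against 676 with tamoxifen, as means), and had 49.3 and 33.8 normalized counts in control against 726 and 1467 after tamoxifen. The log2 fold change was 4.63 (SE 0.41), or 26.4-fold. Library 2 of the tamoxifen group was again 2.02 times library 1, while in the control group library 1 was the higher.

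Pou3f1 (ENSMUSG00000090125, chr4:124550600-124554448, plus strand, 1 exon) was near the limit of detection without tamoxifen, at 1 and 3 reads or 1.37 and 3.75 normalized counts. In the tamoxifen libraries it had 183 and 128 normalized counts, from 169 and 178 reads. The ratio of its summed reads, 347 against 4, was 57.3 after scaling for depth, with a 95% exact interval from 22.2 to 212 that covers counting error only. The fitted log2 fold change was 5.52 (SE 0.62). Unlike Pou3f2 and Pou3f3, it was lower in tamoxifen library 2 than in library 1, at 0.699 of its level.

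Sox3 and Neurog2 were the genes with the fewest reads in the control group. Sox3 (ENSMUSG00000045179, chrX:59934972-59937036, minus strand, 1 exon) had 0 and 1 read in the control libraries and 121 and 139 normalized counts in the tamoxifen libraries. Its 306 tamoxifen reads against 1 control read gave a scaled ratio of 202, with a 95% exact interval from 36.0 to 8013, and a fitted log2 fold change of 6.45 (SE 0.65). The 2 tamoxifen libraries were closer for Sox3 than for any other of the 8 genes, at a ratio of 1.15.

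Neurog2 (ENSMUSG00000027967, chr3:127426448-127429280, plus strand, 2 exons) had no read in either control library, which allows up to 3 reads in each, or 4.11 and 3.75 normalized counts. The tamoxifen libraries held 31 and 74 reads, or 33.6 and 53.2 normalized counts. Against that floor, taken per library, it was at least 11.0-fold higher in the tamoxifen group. Its fitted log2 fold change of 5.44 (SE 0.62) depends on the pseudocount of 1 and is no bound.

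Pax6 (ENSMUSG00000027168, chr2:105499234-105530952, plus strand, 12 exons) had 61.6 and 75.1 normalized counts without tamoxifen and 1292 and 2973 with it. The means were 68.4 ± 9.52 and 2133 ± 1189 (SD, n = 2), for a log2 fold change of 4.83 (SE 0.39) or 31.2-fold. The control libraries were close together, and tamoxifen library 2 was 2.30 times library 1.

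Zic1 (ENSMUSG00000032368, chr9:91240111-91247863, minus strand, 3 exons) had the smallest fold among the 7 genes that were higher, and the largest standard deviation relative to its mean in the tamoxifen group. It had 471 and 819.8 normalized counts in control against 1532 and 4448 after tamoxifen. The log2 fold change was 2.07 (SE 0.47), or 4.63-fold. Library 2 was above library 1 in both groups, by 1.74 times in control and by 2.90 times in tamoxifen. The call of Zic1 was lost without tamoxifen library 1, with a log2 fold change of 2.84, and without tamoxifen library 2, with 1.30.

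Nes (ENSMUSG00000004891, chr3:87878385-87887758, plus strand, 4 exons) differed in the other direction. It had 36146 and 33620.3 normalized counts without tamoxifen and 9261 and 6929 with it, with means of 34883 ± 1786 and 8095 ± 1649 (SD, n = 2). The log2 fold change was -2.12 (SE 0.21), or 4.31-fold lower. Its level in tamoxifen library 2 was 0.748 of that in library 1. The endothelial markers, which fell with a median log2 fold change of -2.93, had a median ratio of 0.512 between the same libraries, and their part in the Nes result was not tested.

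Per kilobase of canonical transcript, Nes was the most abundant of the 8 genes in both groups, at 5694 ± 292 normalized counts per kb in control and 1321 ± 269 in tamoxifen (SD, n = 2). In the control group Zic1 followed at 115 ± 44.0, then Pou3f3 at 32.6 ± 6.50, Pax6 at 11.8 ± 1.64 and Pou3f2 at 7.44 ± 1.96. Pou3f1, Sox3 and Neurog2 were below 1 per kb there. These 3 genes were not told apart in the control group, with 4, 1 and 0 reads in all.

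In the tamoxifen group the order of levels per kb was Nes, Pou3f3 at 676 ± 324, Zic1 at 533 ± 368, Pax6 at 367 ± 205, Pou3f2 at 196 ± 93.7, Sox3 at 63.2 ± 6.19, Pou3f1 at 40.4 ± 10.1 and Neurog2 at 16.9 ± 5.41. The same order held in each tamoxifen library. For each pair of neighbours in the order from Pou3f3 to Pou3f2, the ranges of the 2 libraries overlapped. These genes were all higher in tamoxifen library 2, so overlapping ranges do not measure their differences within a library. Those differences were not tested. With all annotated exons in place of the canonical transcript, Pou3f2 came before Pax6 in both groups.

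The 8 genes did not vary alike between the tamoxifen libraries. Over all tested genes the ratio of library 2 to library 1 had a median of 0.945 and quartiles of 0.816 and 1.23. Zic1 (2.90), Pax6 (2.30), Pou3f3 (2.02), Pou3f2 (2.02) and Neurog2 (1.58) were above the upper quartile. Nes (0.748) and Pou3f1 (0.699) were below the lower quartile, and Sox3 (1.15) was between the quartiles. The median of the 8 genes was 1.80.

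Cell type markers differed between the same libraries, and their values stand here beside those of the 8 genes. Astrocyte genes, such as the glutamate transporter Slc1a2 and the gap junction gene Gja1, had a median ratio of 1.99 and a summed level of 27208 to 32918 normalized counts in control and 120796 to 250791 in tamoxifen libraries, and 8 of 8 were called higher. Oligodendrocyte precursor genes had a median ratio of 1.96 (845 to 1217 in control, 9581 to 16723 in tamoxifen, 6 of 6 called higher). Ependymal and choroid plexus genes, led by the transthyretin gene Ttr, had a median ratio of 2.46 (1146 to 3735 in control, 17307 to 52473 in tamoxifen, 7 of 8 called higher). The medians of these lists, and of the neuron, cerebellar granule neuron and pericyte lists below, lay on the side of tamoxifen library 2. Pax6, Pou3f2, Pou3f3 and Zic1 shared this side, so their ratios single out none of these lists.

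Neuron genes, such as Map2 and Stmn2, had a median ratio of 1.66 (1738 to 2220 in control, 10929 to 18215 in tamoxifen, 6 of 8 called higher). Cerebellar granule neuron genes had a median ratio of 1.63 (263 to 372 in control, 1673 to 2375 in tamoxifen, 3 of 5 called higher). Pericyte genes had a median ratio of 1.97 (32984.5 to 61666 in control, 43016 to 85360 in tamoxifen), and 2 of 7 were called higher, with overlapping summed levels in the 2 groups.

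Pluripotency genes lay on the side of tamoxifen library 1, at a median ratio of 0.746 (101 to 166 in control, 42310 to 55116 in tamoxifen, 10 of 10 called higher). So did primed epiblast genes at 0.834 (762 to 783 in control, 5144 to 6044 in tamoxifen, 4 of 5 called higher). Pou3f1, at 0.699, shared this side with these lists and with the neutrophil, meningeal fibroblast and endothelial lists, so its ratio singles out none of them. Neutrophil genes, led by S100a9, had a median ratio of 0.721 (233 to 301 in control, 82306 to 110569 in tamoxifen, 8 of 8 called higher). Meningeal fibroblast genes had a median ratio of 0.802 (10293 to 10629 in control, 30155 to 38738 in tamoxifen), with 7 of 8 called higher and Foxc1 lower. Schwann cell genes had a median ratio of 1.12 (20479 to 20688 in control, 5020 to 5902 in tamoxifen), with 1 of 6 called higher and 2 lower. Of all these markers, only the epiblast gene Fgf5 was at 0 in both control libraries. Through the tamoxifen libraries alone, the filter was passed by 4 of the pluripotency, 3 of the neutrophil, 2 of the oligodendrocyte precursor and 1 of the primed epiblast genes, all called higher. The part of these cell types in the levels of the 8 genes was not tested.

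**Figure D2:**
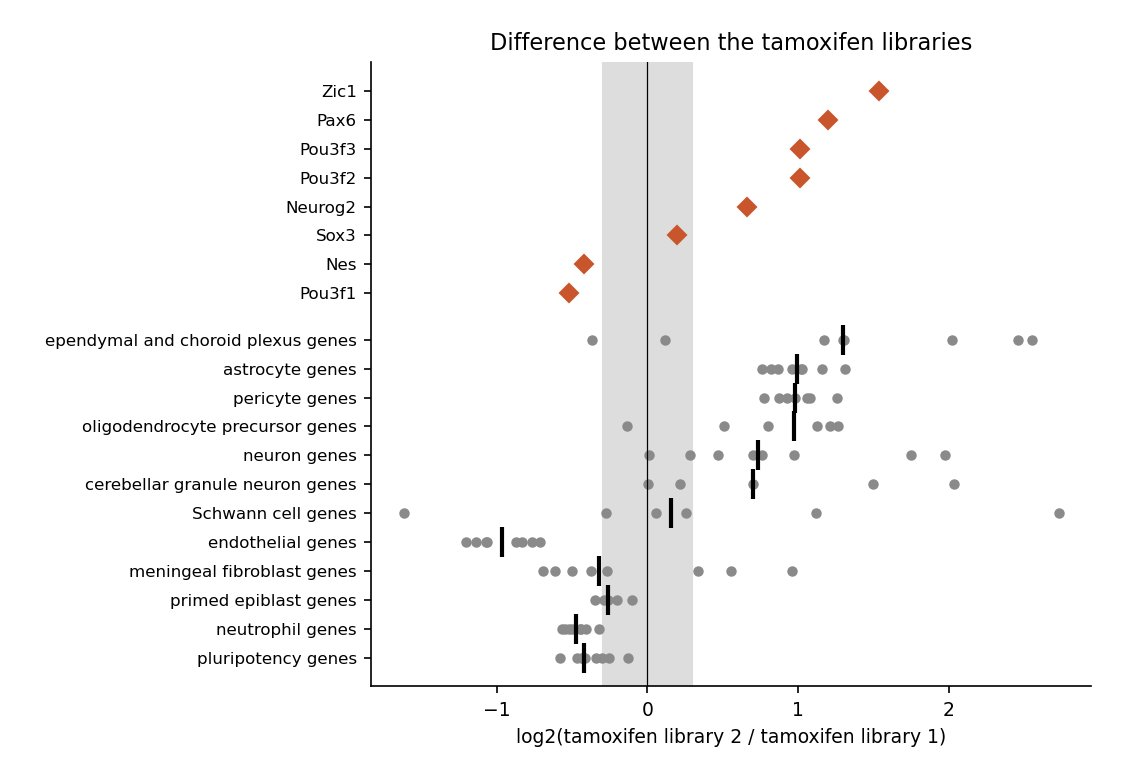
Difference between the 2 tamoxifen libraries, as log2 of library 2 over library 1 on the horizontal axis, for the 8 genes (orange diamonds) and the tested genes of each marker list (gray points, with a black bar at the list's median). The gray band spans the quartiles over all tested genes. Zic1, Pax6, Pou3f3 and Pou3f2 lie on the side of the astrocyte, ependymal, oligodendrocyte precursor, pericyte and neuron lists. Pou3f1 and Nes lie on the side of the endothelial, pluripotency, primed epiblast, neutrophil and meningeal fibroblast lists.

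Relatives of the 8 genes, from the same families and pathways, were examined next. Of 79 such genes on the lists, 74 were listed in the data and 71 passed the filter and were tested. Of these 71, 54 rose and 7 fell, against 28.6% and 16.0% of all tested genes. Among the tested relatives, 18 were below 10 normalized counts in both control libraries and so passed the filter through the tamoxifen libraries alone, which left them no direction but higher. They make up 17 of the 54 that rose, and over all tested genes such genes numbered 2027, of which 1862 were called higher. With the filter at a mean of 100 normalized counts, 40 of 52 relatives rose and 5 fell. The median log2 fold change of the 71 was 3.83, or 3.73 with genes that had no control read placed at their bound. The number that rose was 37 without tamoxifen library 1 and 29 without tamoxifen library 2.

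**Figure D3:**
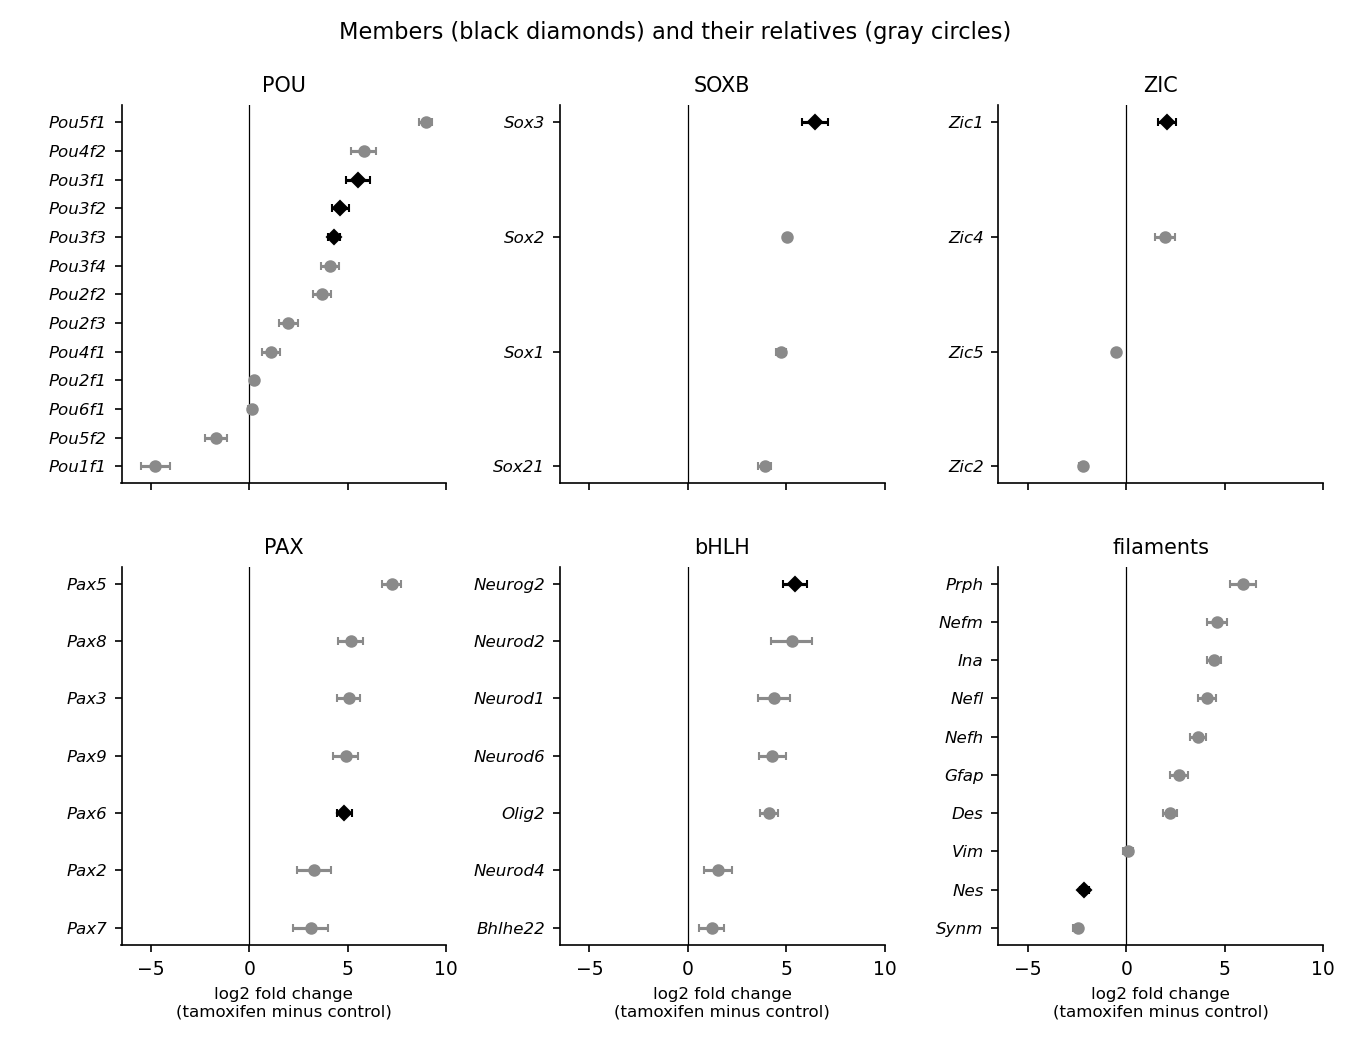
Log2 fold change (tamoxifen minus control, horizontal axis) with standard error (bars) for the 8 genes as black diamonds and for tested relatives in the same family as gray circles (not every one is drawn), fitted over 2 libraries a group. POU genes run from -4.77 for Pou1f1 to 8.95 for Pou5f1, and Zic1 and Zic4 lie opposite Zic2.

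Among POU genes outside the 8, 5 of 10 tested rose and 2 fell, with a median log2 fold change of 1.54, and 1 of each passed the filter through a single group. Pou5f1 (Oct4), the POU factor of pluripotent cells, had 8.22 and 12.5 normalized counts in control against 6020.5 and 5039 after tamoxifen. Its log2 fold change was 8.95 (SE 0.31, limma with Benjamini-Hochberg adjustment, adjusted p = 3.42e-06). The broadly expressed octamer factor Pou2f1 (Oct1) had 2952 and 2543 against 2949 and 3512, with overlapping groups and an adjusted p of 0.263 in the same limma test. Pou3f4, the remaining class III gene, is named here after its values were seen. It had 34.2 and 61.3 normalized counts without tamoxifen and 577 and 1110.0 with it, and rose by 4.10 on the log2 scale (SE 0.44, limma with Benjamini-Hochberg adjustment, adjusted p = 0.000178), a call lost without tamoxifen library 2. All 4 class III genes were thus higher after tamoxifen without overlap of the groups, as were 43.1% of all tested genes. Pou3f1, Pou3f2 and Pou3f3 were chosen by this contrast, and the filter left Pou3f1 no direction but higher. The count of 4 is therefore a description and is not read as a result for the class.

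The SOXB relatives Sox1, Sox2 and Sox21 all rose, with a median log2 fold change of 4.72. Sox2, which neural progenitors share with pluripotent cells, had 139.7 and 181 normalized counts in control against 5176 and 5511 after tamoxifen (log2 fold change 5.06, SE 0.20, limma with Benjamini-Hochberg adjustment, adjusted p = 4.43e-06). Its tamoxifen libraries were close, at a ratio of 1.06, as were those of Sox3. Sox1, a SOXB1 factor of the early neural plate, had 79.4 and 96.4 against 1973 and 2750.5 normalized counts.

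ZIC genes split in direction, with 1 of 4 tested relatives of Zic1 called higher, 2 called lower and a median log2 fold change of -1.21. Zic4, which lies head to head with Zic1 and overlaps it on the opposite strand, had 136 and 135 normalized counts without tamoxifen and 295 and 971 with it (log2 fold change 1.98, SE 0.51, limma with Benjamini-Hochberg adjustment, adjusted p = 0.0119). Its call was lost without tamoxifen library 2, at a log2 fold change of 1.12, under quantile normalization, at 1.01, and with no trend, at an unchanged 1.98. Zic2, another factor of the dorsal neural tube, fell from 13637 and 14775 to 3190 and 2924 (log2 fold change -2.22, SE 0.16). Zic1 and Zic4 were thus higher and Zic2 lower in the tamoxifen libraries, without overlap of the groups.

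The 6 tested PAX relatives of Pax6 were all below 10 normalized counts in both control libraries and passed the filter through the tamoxifen libraries alone, so the filter fixed their common direction, which is not read as a result. By the same rule all 6 were called higher. Pax5, known from B cell precursors and from the midbrain-hindbrain boundary, had 5.48 and 3.75 normalized counts in control against 1007 and 682 after tamoxifen. Its log2 fold change was 7.22 (SE 0.47), given as a description. Pax3, a factor of the dorsal neural tube and neural crest, rose from 2.74 and 5.01 to 125 and 197 normalized counts. Unlike Pax6, Pax5 was higher in tamoxifen library 1.

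Of the proneural relatives of Neurog2, 5 of 7 tested rose, with a median log2 fold change of 4.12 (2.64 with genes at the floor at their bound). Of the 5, 2 (Neurod2 and Neurod6) passed the filter through the tamoxifen libraries alone. Neurod1, which acts after Neurog2 and in cerebellar granule neurons, had 16.4 and 48.8 against 260.1 and 1411 (log2 fold change 4.36, SE 0.81). Neurod2, a factor of excitatory neurons, had 5.48 and 0 against 44.4 and 211 (log2 fold change 5.27, SE 1.06). The calls of Neurod1 and Neurod2 were lost without either tamoxifen library, and both were higher in library 2.

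Known targets of Neurog2 rose in 8 of 10 cases. Their median log2 fold change was 3.94 (3.70 with genes at the floor at their bound). Of the 8, 3 (Eomes, Tbr1 and Dll3) passed the filter through the tamoxifen libraries alone, which left them no direction but higher. The targets not called were Dll1, at a log2 fold change of -0.35, and Hes6, at 0.20. Dcx, the doublecortin gene of migrating neurons, had 219 and 196.5 normalized counts in control against 4144 and 7721 after tamoxifen (log2 fold change 4.76, SE 0.28). Tubb3, a tubulin of neurons, rose from 156 and 178 to 4150 and 6497 (log2 fold change 4.95, SE 0.24). Eomes (Tbr2), the factor of intermediate progenitors, rose from 8.22 and 2.50 to 223 and 498 (log2 fold change 5.88, SE 0.67), a call lost without tamoxifen library 2. Dcx, Tubb3 and Eomes were, like Neurog2, higher in tamoxifen library 2 than in library 1.

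Forebrain patterning factors rose in 11 of 12 cases, with a median log2 fold change of 4.62, and 4 of the 11 passed the filter through the tamoxifen libraries alone. Dlx1, a homeobox factor of inhibitory neuron precursors, had 83.6 and 105 normalized counts without tamoxifen and 2273 and 3595 with it (log2 fold change 4.92, SE 0.28). Dlx2, its partner in the same cells, had 63.0 and 38.8 against 1434 and 2492 (log2 fold change 5.23, SE 0.37). Otx2, a head organizer factor that is also active in choroid plexus and epiblast, had 5.48 and 28.8 against 483 and 769 (log2 fold change 5.46, SE 0.71), a call lost without either tamoxifen library.

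Radial glia genes rose in 8 of 10 cases and fell in 2, with a median log2 fold change of 3.76. Slc1a3, the glutamate transporter GLAST of radial glia and astrocytes, had 3349 and 4930 normalized counts in control against 37678 and 77311 after tamoxifen (log2 fold change 3.73, SE 0.35). Tnc, the matrix protein tenascin C, rose from 112 and 98.9 to 5918 and 6427 (log2 fold change 5.86, SE 0.18). Prom1, a membrane protein of neural stem cells, fell from 51281 and 46710 to 7219 and 3188 (log2 fold change -3.35, SE 0.35). Prom1 was thus, like Nes, lower in tamoxifen library 2 than in library 1.

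Of the filament genes that are relatives or partners of nestin, 7 of 9 rose and 1 fell, with a median log2 fold change of 3.67, and 1 of the 7, Prph, passed the filter through the tamoxifen libraries alone. Vim, the vimentin gene whose product assembles with nestin, had 29345 and 33916 normalized counts without tamoxifen and 39534 and 29116 with it. Its groups overlapped, with a log2 fold change of 0.10 (SE 0.25, limma with Benjamini-Hochberg adjustment, adjusted p = 0.739), and 1.01 under quantile normalization, where it was called. Synm, the synemin gene, fell from 23333 and 22954 to 5328 and 3321 (log2 fold change -2.46, SE 0.24). Prph, the peripherin gene of peripheral neurons, rose from 1.37 and 6.26 to 268 and 242 (log2 fold change 5.95, SE 0.66), a call lost without either tamoxifen library.

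Position on the chromosome was not used to choose the genes, and the nearest listed gene on each side was examined for all 8. Of these 16 neighbours 13 were tested, 6 rose and 1 fell, against 28.6% and 16.0% of all tested genes, and the median log2 fold change was 0.43. Of the 6, Gm30731 passed the filter through the tamoxifen libraries alone. Without tamoxifen library 2 the number that rose was 3. Of the neighbours, 6 overlap 5 of the genes, all on the opposite strand. The libraries were made with a stranded kit, but the strand setting of the counting is not given in the sources used here. Whether reads from the stretches shared by a gene and its antisense neighbour were counted for the right gene is thus not known.

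Overlapping lncRNA genes were higher in the tamoxifen libraries, as their partners were. Pantr1 (chr1:42629754-42734584), next to Pou3f3, had 50.7 and 83.9 normalized counts in control against 626 and 1326 after tamoxifen (log2 fold change 3.78, SE 0.43). Gm30731 (chr4:22487414-22493826), next to Pou3f2, had 5.48 and 0 against 36.8 and 94.9 (log2 fold change 4.56, SE 0.97). The call of Gm30731 was lost without either tamoxifen library, and that of Pantr1 without library 2. Pax6os1, at 0 and 0 against 4.34 and 23.0, and Gm14662 next to Sox3, at 0 and 0 against 5.42 and 14.4, were too low to be tested. Elp4, a coding gene that overlaps the 3' end of Pax6, had 642 and 612 against 735 and 781 normalized counts, with an adjusted p of 0.241 by limma with Benjamini-Hochberg adjustment. Pax6 and Elp4 thus differed by far in fold change, at 4.83 and 0.27 on the log2 scale.

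Among the 10 neighbours without overlap, 9 were tested, 3 rose and 1 fell. Both neighbours of Nes rose although Nes was lower. Bcan, a brain proteoglycan gene 7.08 kb away, had 967 and 1642 normalized counts without tamoxifen and 12582 and 25619 with it (log2 fold change 3.83, SE 0.36, limma with Benjamini-Hochberg adjustment, adjusted p = 0.000105). Crabp2, a retinoic acid binding protein gene 17.7 kb away that also stands on the meningeal fibroblast list, had 8.22 and 12.5 against 773 and 547 (log2 fold change 5.87, SE 0.45). Bcan was higher in tamoxifen library 2, and Crabp2 in library 1.

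The other neighbours differed less. Zgrf1, 14.8 kb from Neurog2, rose from 219 and 230.3 to 1164 and 1078 normalized counts (log2 fold change 2.31, SE 0.21). Utp11, Rragc, Fbxl4, Mrps9 and Alpk1 were not called, with log2 fold changes from -0.73 for Alpk1 to 0.43 for Mrps9. Both neighbours of Pou3f1, Utp11 at -0.15 and Rragc at -0.53, were among these. A730094K22Rik, near Zic1, was too low to be tested.

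**Figure D4:**
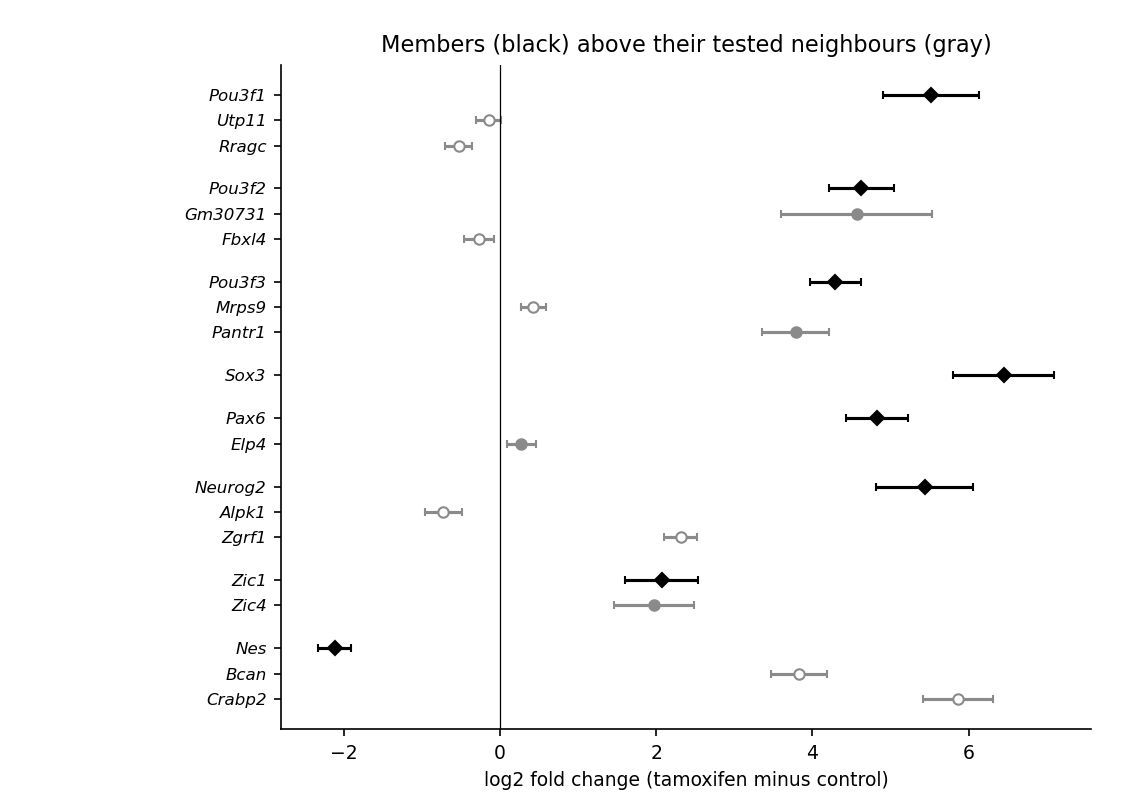
Log2 fold change (tamoxifen minus control, horizontal axis) with standard error (bars) for each of the 8 genes (black diamonds) and its tested neighbours below it, filled gray where the neighbour overlaps the gene and open where it does not (not every tested neighbour is drawn). Pou3f1 at 5.52 stands above Utp11 at -0.15 and Rragc at -0.53, and Nes at -2.12 stands below Bcan at 3.83 and Crabp2 at 5.87.

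For each of the 8 genes, the gene with the most alike pattern over the 4 libraries was found among 20477 others, by the root mean square difference of log2(normalized count + 1) after centring each gene on its own mean. This gives Tmcc3 for Nes (0.0239), Tspan32, a tetraspanin gene, for Pou3f1 (0.0454), Gm40040 for Neurog2 (0.0463) and Grid2ip for Pou3f2 (0.0512). It gives F3, the tissue factor gene that starts coagulation, for Pou3f3 (0.0552), Agbl4 for Zic1 (0.0574), Nme9 for Pax6 (0.0688) and the mitotic kinase gene Aurkb for Sox3 (0.114). F3 had 237 and 288 normalized counts in control against 3627 and 6960 after tamoxifen. Tmcc3 had 8128 and 7533 against 2039 and 1494.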

How the data were processed

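RNA of CD31+CD45- brain cells was sequenced in 2 control and 2 tamoxifen libraries. Per the labels and methods, libraries were made with a stranded KAPA kit and aligned with STAR 2.7.10a to GRCm39, and the authors then dropped genes of low count and applied the normalization of DESeq2 1.36.0. The annotation release, the strand setting and the low-count limit are not given in the sources used here. The deposited values are a signal, in which the authors scaled the read counts of each library by 1 factor. All values (100%) were whole multiples of 1 read, within 0.01, so reads were recovered. Columns lettered C were read as control and A as tamoxifen, from the letters and numbers, not from values. No further sample columns were present.

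The main fit was limma 3.58.1 (R 4.3.3, trend) on log2(normalized count + 1), computed from the deposited signal, restricted to genes whose mean reached 10, with Benjamini-Hochberg adjustment over 20485 genes. Fold changes on this scale understate those of low genes. Alternatives were pseudocounts of 0.5 and 5, no filter or a filter at 100, equal totals, quantile normalization, no trend, a replicate block, count models (edgeR 4.0.16, DESeq2 1.42.0) run on the recovered reads, the adjusted p alone, and each library left out. Tables were summarised in Python 3.11.15. Positions came from GENCODE M39 on GRCm39, which held 24528 of the 24873 listed genes. Intervals and floors (3 reads a library) cover counting error only.

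The genes and all lists were chosen with earlier results of these data known. Lists covered relatives (POU, SOXB, ZIC, PAX, proneural, Neurog2 targets, forebrain factors, radial glia, filaments), neighbours and markers of 12 kinds of cell. Named were the 8 genes, in each list of relatives the 2 most abundant tested genes and that of largest fold change, the nearest neighbours, the most alike gene, and the 2 most abundant markers of a list; others are said to be named after their values were seen, or complete a count or family. Some genes that this rule selects are not reported here.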

Additional observations from a re-analysis of the deposited data

How the results depend on the processing

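No called result changed direction. The 8 genes were chosen by this contrast in the same libraries, so the calls they kept are a description and no support. In the main fit the filter left Pou3f1, Neurog2 and Sox3 no direction but higher. Of 109 alternative results on the 8 genes, 106 kept their side of the thresholds, and the 3 others were those of Zic1, whose call was lost with no trend (log2 fold change 2.07) and without either tamoxifen library (range over the left-out libraries 1.30 to 2.84). Of the 8 genes, those called higher numbered 4 with a filter at a mean of 100 normalized counts, which Pou3f1, Neurog2 and Sox3 did not pass, so these 3 have no value there. Over the alternatives the log2 fold changes ran from -2.33 to -1.44 for Nes, 3.24 to 8.39 for Neurog2, 4.23 to 5.43 for Pax6, 3.99 to 6.02 for Pou3f1, 3.97 to 5.13 for Pou3f2, 3.79 to 4.80 for Pou3f3 and 4.60 to 7.66 for Sox3. The relatives called higher numbered 29 to 54 with a library left out, the neighbours called higher 3 to 6 and the neighbours called lower 0 to 1, the last being 2 under quantile normalization and 3 by the adjusted p alone. Over all genes, 9151 were called (5867 higher, 3284 lower), 5934 with the filter at 100 (3540 higher) and 4147 to 9700 with a library left out (2553 to 6163 higher, 1594 to 3537 lower). With equal totals the split was 7206 higher and 1838 lower, under quantile normalization 4615 and 5509, and by the adjusted p alone 5228 were lower. These scalings moved the median of all genes by 0.47 and -0.28 on the log2 scale, and leaving out the filter moved it by 0.12. The replicate block gave 9525 genes, with 7 of the 8 genes higher and 1 lower, 55 and 7 relatives, and 6 and 1 neighbours. Deviations of same-numbered libraries correlated at 0.0251. With 2 libraries a group, this value cannot show whether the pools were paired by number. edgeR called 9241 genes and DESeq2 8739, both with 7 and 1 of the 8. For relatives and neighbours 1063 of 1142 results kept their side of the thresholds, 70 lost a call and 9 gained one. The fits with a library left out assume that the lone library of a group varies like the other group, and the cause of the lost calls was not tested. Depth limits Pou3f1, Sox3 and Neurog2 in the control group, at 4, 1 and 0 reads.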

Other observations

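Genes of the Notch pathway, which holds neural progenitors back from differentiation, are spread over the lists and were named after their values were seen. Hes5, a Notch effector of neural progenitors, had 9.59 and 26.3 normalized counts without tamoxifen and 158 and 365 with it, a log2 fold change of 3.83 (SE 0.64, limma with Benjamini-Hochberg adjustment, adjusted p = 0.00153). Hes1, an effector that endothelial cells share, fell from 3617 and 3784 to 1492 and 1185 (log2 fold change -1.48, SE 0.17). The ligand gene Dll3 rose from 5.48 and 8.76 to 92.1 and 107 (log2 fold change 3.66, SE 0.55). Dll3 passed the filter through the tamoxifen libraries alone, which left it no direction but higher. The ligand gene Dll1 had 593 and 527 against 367 and 521, with an adjusted p of 0.252 by limma with Benjamini-Hochberg adjustment. The call of Hes5 was lost without either tamoxifen library. Hes1 and Hes5 thus differed in direction in both tamoxifen libraries.

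Other genes of the same lists were at 0 in both control libraries and were also named after their values were seen. Tbr1, a factor of early cortical neurons, had 42.3 and 43.9 normalized counts in the tamoxifen libraries, at least 11.0-fold higher than the floor of 3 reads per library. Pou4f2, a factor of retinal ganglion cells, had 71.5 and 42.4, at least 14.5-fold higher, and Pax8, a factor of thyroid and kidney, had 27.1 and 43.1, at least 8.93-fold higher. The growth hormone factor gene Pou1f1 of the pituitary went the other way. It had 30.1 and 57.6 normalized counts in control against 0 and 1.44 after tamoxifen, a log2 fold change of -4.77 (SE 0.72). Pou1f1 passed the filter through the control libraries alone, and Tbr1, Pou4f2 and Pax8 through the tamoxifen libraries alone. The filter thus fixed the direction of these genes, which is not read as a result.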
